A study of Mus musculus with 6 samples.

Results

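MHC class II presentation is described here through 8 genes: the antigen-binding chains H2-Aa, H2-Ab1 and H2-Eb1, the invariant chain Cd74, the peptide-exchange chains H2-DMa, H2-DMb1 and H2-DMb2, and the transactivator Ciita. They were taken by symbol from the 32285 genes of the deposited matrices, and each symbol was found once in both. Mice were wild-type C57BL/6J animals aged 6 to 8 weeks that carried intracranial CT2A tumors, a transplanted mouse glioma line. T cells (CD3+ with CD4 or CD8) were sorted from the tumors 13 or 19 days after implantation and captured with 10x 5′ chemistry, with gene expression, antibody tag and T cell receptor (TCR) libraries for each day, 6 samples in all. Day 13 used 16 mice pooled by 4 and day 19 used 4 mice. Each day is 1 capture, so no test between days was possible. Effects of day, of capture and of tag staining cannot be told apart. No treatment is named in the labels, and no group without a tumor was analysed.

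Class II molecules are pairs of an alpha and a beta chain that show peptides from engulfed proteins to CD4 T cells. The invariant chain guards the binding groove on the way to the endosome, and DM, itself a class II-like pair, then exchanges its last fragment for peptide. Dendritic cells, macrophages and B cells carry these genes constitutively or after interferon-gamma, through Ciita, which is recruited by factors bound at X and Y boxes of the promoters. Mouse T cells are known for little class II transcription of their own.

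In the mm10 build of GRCm38, 6 members lie together on chromosome 17: H2-DMa (ENSMUSG00000037649, 34119693 to 34139101), H2-DMb2 (ENSMUSG00000037548, 34143229 to 34151553), H2-DMb1 (ENSMUSG00000079547, 34153191 to 34160229), H2-Ab1 (ENSMUSG00000073421, 34263227 to 34269418), H2-Aa (ENSMUSG00000036594, 34282744 to 34287823) and H2-Eb1 (ENSMUSG00000060586, 34305867 to 34316674). Ciita (ENSMUSG00000022504) lies on chromosome 16 from 10480014 to 10531064, and Cd74 (ENSMUSG00000024610) on a further chromosome. The spans are those of the RefSeq gene table.

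Promoter windows are shown because the chains and Cd74 had the same order across cell classes at day 13 while H2-DMb1 and its neighbour H2-DMb2 each had another. Each window is the 130 bases upstream of a RefSeq transcript start (GRCm38.p6), written 5′ to 3′ on the gene's strand. Capitals mark letters of the Y box, TGATTGG, and of the X box, AACNNATG, each searched on both strands.
H2-Eb1, chr17:34305737-34305866, plus strand: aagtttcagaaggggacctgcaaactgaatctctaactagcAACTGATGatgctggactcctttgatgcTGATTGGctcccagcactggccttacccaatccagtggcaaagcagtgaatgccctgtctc
H2-DMb1, chr17:34153061-34153190, plus strand: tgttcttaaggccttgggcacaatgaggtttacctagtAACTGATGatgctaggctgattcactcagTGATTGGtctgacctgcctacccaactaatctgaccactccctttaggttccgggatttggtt
H2-DMb2, chr17:34145119-34145248, plus strand: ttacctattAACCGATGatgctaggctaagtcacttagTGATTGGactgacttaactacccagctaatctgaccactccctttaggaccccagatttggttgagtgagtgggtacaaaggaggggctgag
H2-Aa, chr17:34287824-34287953, minus strand: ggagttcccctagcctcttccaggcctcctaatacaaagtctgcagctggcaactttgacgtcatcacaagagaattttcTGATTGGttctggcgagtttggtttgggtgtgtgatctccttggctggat

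H2-Eb1, H2-DMb1 and H2-DMb2 held both sets of letters, with the first base of X 28, 29 and 29 bases before the first base of Y. H2-Aa held the Y letters only, starting 50 bases before the transcript start, and the 2 windows of H2-DMa held neither. Over 32851 windows of this length, 5.35% had the Y letters and 3.87% the X letters, and X followed by Y at 20 to 45 bases was found in 8 windows. Those 8 include H2-Eb2 and H2-Ob, both class II genes outside the 8 members. A match describes letters and is neither a site nor a cause, and the lack of a match says only that these letters are not in the window.

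Of the deposited barcodes, 8878 at day 13 and 4667 at day 19 had at least 5000 gene UMIs (unique molecular identifiers, 1 per captured molecule) and at most 10% mitochondrial UMIs, from matrices of 144565182 and 81224453 gene UMIs. No UMI of Cd3d, Cd3e or Cd3g was present in 1019 and 343 of them, with medians of 9156 and 9634 UMIs. A TCR contig table listed 4632 and 3215 passing barcodes, with medians of 7607.5 and 10079 UMIs. Another 3229 and 1109 had a Cd3 UMI but no contig entry and were not described further. The same barcode sequence passed on both days in 62 cases. No doublet caller was used, and barcodes of high UMI number may hold more than 1 cell.

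Since the sort was for CD3+ cells, barcodes without Cd3 fall outside its gate, and their numbers may be set by it; 2 of them at day 13 and 0 at day 19 were also listed in a contig table. They were divided by 5 genes, each at 2 UMIs or more with at most 1 of the other 4: Cd209a (152 barcodes at day 13 and 58 at day 19), Fscn1 (107 and 28), Gpnmb (75 and 5), Vcan (47 and 11) and P2ry12 (53 and 26). No marker was met in 480 and 192, and several in 105 and 23. Marker lists of cell types were summed without the 5 dividing genes, which the rule itself set. The mature dendritic list then reached 7472 UMIs per 1000000 gene UMIs (CPM) in the Fscn1 class at day 13, against 175 CPM in the Cd209a class. Macrophage genes summed to 34054 CPM in the Gpnmb class, and monocyte genes to 10501 CPM in the Vcan class. P2ry12 barcodes held 6911 CPM of the microglia list and 24076 CPM of the macrophage list, which shares complement and Apoe transcripts with microglia. In the Cd209a class the type 2 dendritic list stood at 505 CPM, no higher than in Gpnmb (552) or P2ry12 barcodes (583), and monocyte genes at 4344 CPM, so that class is called by its marker gene alone. The T cell list, which includes the Cd3 genes that the rule set to 0, summed to 5.92 to 16.3 CPM over the 5 classes at day 13, against 3221 CPM in contig barcodes.

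Among the 5 classes, class II levels were highest in Cd209a barcodes, then in Fscn1, Gpnmb and P2ry12 barcodes, and lowest by far in Vcan barcodes at day 13. The 8 genes together took 50206 CPM in the Cd209a class, 32175 in Fscn1, 19895 in Gpnmb, 15112 in P2ry12 and 1941 in Vcan barcodes. At day 19 the sums were 43147, 38487, 50156, 18039 and 8173 CPM in the same order of classes, where the Gpnmb value rests on 5 barcodes and 1 of the 11 Vcan barcodes held 88.3% of that class's class II UMIs. Barcodes without a marker (480 and 192), the largest group without Cd3, had 42465 and 42888 CPM, more than the Fscn1 class on both days. Among them, barcodes with Xcr1 or Clec9a UMIs, markers of type 1 dendritic cells, gave 52763 CPM (43 barcodes) and 48658 CPM (13 barcodes). The exact 95% Poisson intervals of these sums are narrow, for example 49851 to 50564 CPM for the Cd209a class at day 13, but they cover counting error only and not differences between animals. UMIs of a 5′ library are counted per molecule and were not divided by length, so genes are compared with each other only as shares of UMIs.

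**Figure D1:**
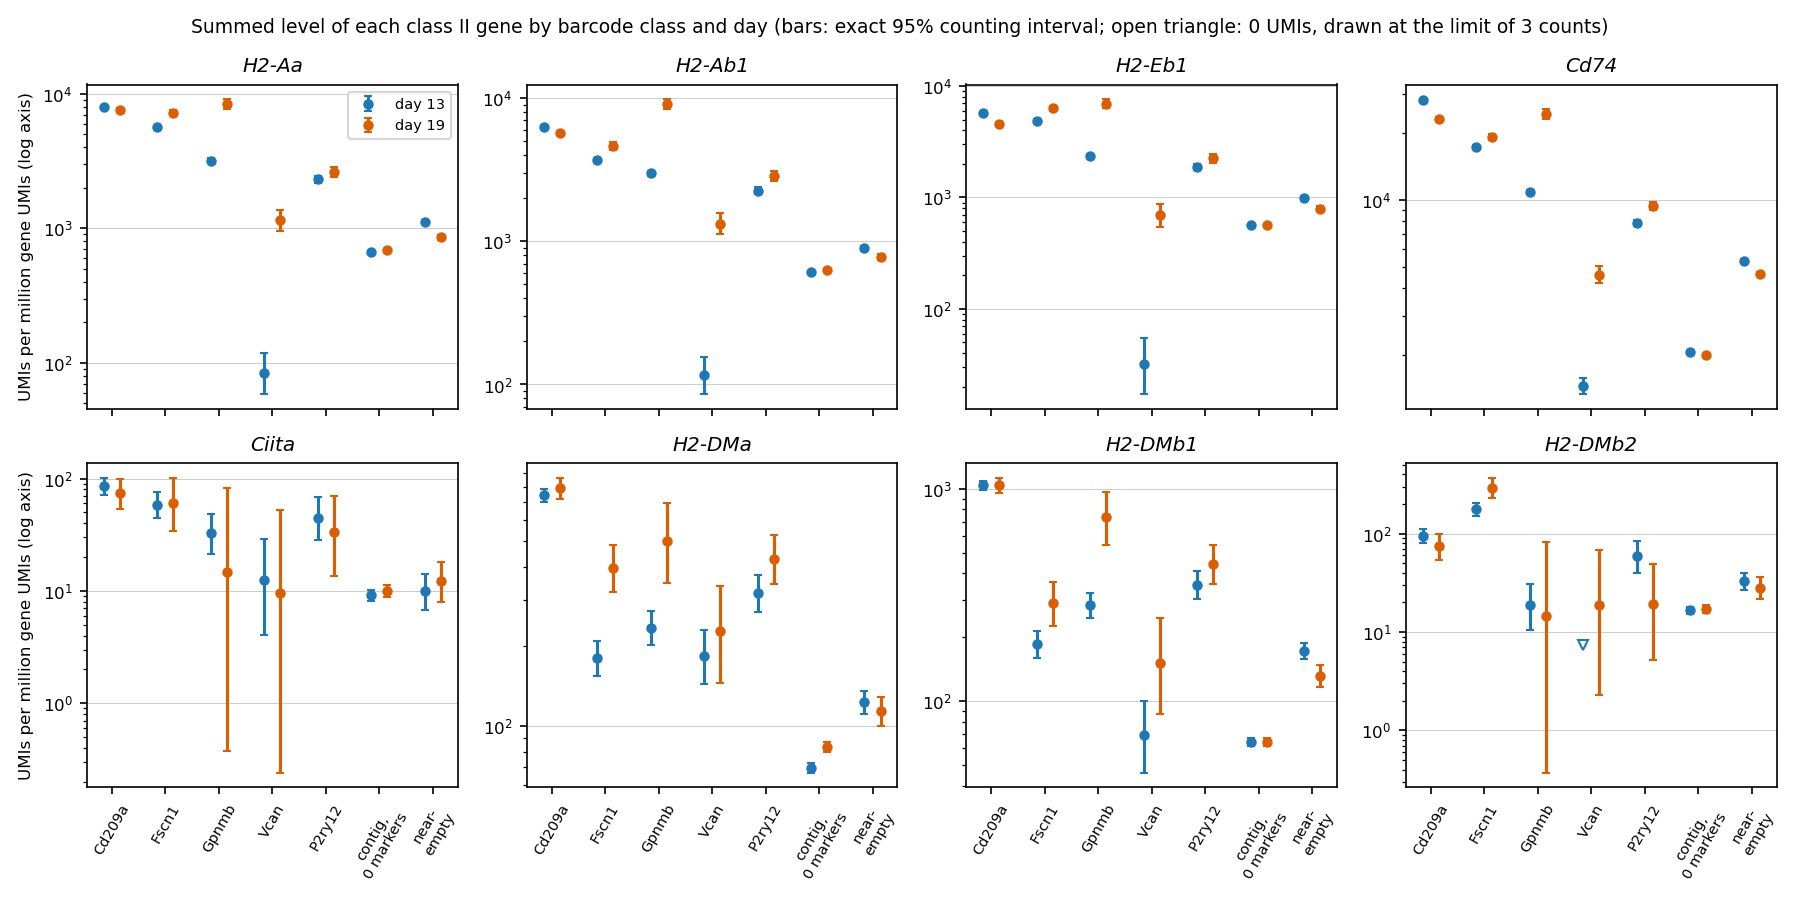
Level of each class II gene (y axis, CPM, log axis) in each barcode class (x axis) at day 13 and day 19, with exact 95% counting intervals; an open triangle marks 0 UMIs, drawn at the limit of 3 counts. The chains and Cd74 follow the same order of classes at day 13, with Vcan barcodes lowest, while H2-DMb2 is highest in the Fscn1 class among the 5 marker classes.

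At day 13 the chain genes followed one order of classes. H2-Aa, the alpha chain of I-A, measured 7977 CPM in the Cd209a class at day 13 and 7547 at day 19. It measured 5612 and 7217 CPM in the Fscn1 class, 3179 and 8374 in the Gpnmb class, 2315 and 2606 in the P2ry12 class, and 84.4 and 1149 in the Vcan class. H2-Ab1, its beta partner, stood at 6340 and 5751 CPM in Cd209a barcodes, 3707 and 4644 in Fscn1, 2992 and 9109 in Gpnmb, 2262 and 2885 in P2ry12, and 117 and 1329 in Vcan. At day 19 the order differed, with Gpnmb highest for both chains of I-A, from 5 barcodes. With overlapping classes, which gave 12 Gpnmb barcodes, the summed members were higher in Cd209a and Fscn1 than in Gpnmb barcodes. Their day-19 log2 ratios against Gpnmb went from -0.22 to 0.97 and from -0.38 to 0.10.

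H2-Eb1, the I-E beta chain, had 5715 and 4583 CPM in the Cd209a class, 4896 and 6317 in Fscn1, 2351 and 6949 in Gpnmb, 1877 and 2240 in P2ry12 and 32.3 and 693 in Vcan, so at day 19 it was higher in Fscn1 than in Cd209a barcodes, unlike the I-A chains. The C57BL/6 strain lacks a working I-E alpha chain, so this transcript has no known surface partner there. The balance of the 2 I-A chains differed between classes: H2-Ab1 UMIs per 100 H2-Aa UMIs were 79.5 and 76.2 in the Cd209a class, 66.1 and 64.4 in Fscn1, 94.1 and 109 in Gpnmb and 97.7 and 111 in P2ry12 barcodes. In Vcan barcodes they were 138 and 116, from 34 and 121 H2-Aa UMIs. The Fscn1 class was lowest of the 5 on both days.

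Cd74, the invariant chain, was the most counted member everywhere: 28210 and 23285 CPM in the Cd209a class, 17359 and 19270 in Fscn1, 10804 and 24461 in Gpnmb, 7885 and 9383 in P2ry12, and 1442 and 4594 in Vcan barcodes. Against 100 UMIs of the 3 chains it had 141 and 130 in the Cd209a class, 122 and 106 in Fscn1, 127 and 100.1 in Gpnmb and 122 and 121 in P2ry12. Vcan barcodes at day 13 stood apart with 618 Cd74 UMIs per 100 chain UMIs, since their Cd74 was lower by less than their chains were. At day 19 the same ratio was 145, with most of the UMIs from 1 barcode.

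Within day 13, each class was set against the Gpnmb class. In Cd209a barcodes all 8 members were at least 2-fold higher, where 14.9% of the 3112 genes with at least 100 UMIs over the 2 sums together were. H2-DMb2 and Ciita, with 15 and 26 UMIs in the Gpnmb class, reached that total only through the Cd209a class, so the count of 8 is a description and no support. The other 6 had log2 ratios from 1.08 for H2-Ab1 to 1.88 for H2-DMb1, and the summed members stood 1.34 higher. In Fscn1 barcodes 2 of the 7 members with enough UMIs passed 2-fold, H2-Eb1 at 1.06 and H2-DMb2 at 3.24, against 19.0% of genes, and H2-DMb2 reached the total only through the Fscn1 class. The Fscn1 sum was 0.69 higher on the log2 scale, with the DM alpha chain H2-DMa at -0.38 and the other beta chain H2-DMb1 at -0.61.

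In Vcan barcodes 5 of 6 members were at least 2-fold lower than in the Gpnmb class, where 10.7% of genes were. H2-Aa, H2-Ab1, H2-Eb1 and H2-DMb1, with 34, 47, 13 and 28 UMIs in Vcan barcodes, entered only through the Gpnmb class, so this count is no support either. H2-Eb1 differed most, by -6.19 on the log2 scale (-7.10 to -5.41), and Cd74 by -2.91. The exception was H2-DMa, at 184 against 235 CPM, a log2 ratio of -0.36 whose counting interval of -0.76 to 0.04 includes 0. H2-DMb2 had no UMI in the 47 Vcan barcodes at day 13, which allows a level of up to 7.45 CPM. P2ry12 barcodes differed from the Gpnmb class by less than 2-fold in all 6 members tested, against 15.0% of genes in either direction. Their chains and Cd74 were lower by 0.32 to 0.46 on the log2 scale, an order not kept at a marker minimum of 1 UMI (sum at 0.21 in place of -0.40), and their DM genes H2-DMa and H2-DMb1 higher by 0.44 and 0.32. At day 19 the Gpnmb class held 5 barcodes, and against it 0 of 6 members passed 2-fold in Cd209a barcodes (33.1% of genes in either direction) and 1 of 6, H2-DMb1, in Fscn1 barcodes (40.3%). H2-Aa, H2-Ab1, H2-Eb1 and Cd74 were lower by 2-fold or more in Vcan barcodes (4 of 4 members tested, 28.2% of genes) and in P2ry12 barcodes (4 of 6, 20.7%), counts that rest on those 5 barcodes.

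The DM genes had the widest differences between the Fscn1 and Cd209a classes at day 13, in a comparison and for genes chosen after the values had been seen. H2-DMa was at 744 and 791 CPM in Cd209a barcodes but at 180 and 395 in Fscn1 barcodes, and H2-DMb1 at 1039 and 1042 against 185 and 289. At day 13 these were the 2 of 8 members at least 2-fold lower, with log2 ratios of -2.05 (-2.28 to -1.82) and -2.49 (-2.72 to -2.26), where 15.7% of genes were that much lower. The chains, Cd74 and Ciita differed by less, between -0.22 and -0.77. H2-DMb2 went the other way, from 94.7 to 178 CPM, a log2 ratio of 0.91 that was 0.19 with overlapping classes and 1.52 with the marker at 4 UMIs.

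At day 19, H2-DMa and H2-DMb1 were the 2 of 7 members at least 2-fold lower in Fscn1 barcodes (22.7% of genes), a share near the background, at 0.499 and 0.277 times the Cd209a level. H2-DMb2 was the 1 of 7 at least 2-fold higher (13.5% of genes, also near the background), at 1.98 from 293 against 74.2 CPM (1.01 with overlapping classes). Without the 8% of barcodes of highest UMI number, only 1 of the members passed 2-fold in either direction at day 19. H2-DMb2 UMIs per 100 H2-DMb1 UMIs were 9.12 and 7.12 in the Cd209a class, 96.1 and 101 in Fscn1, 6.67 and 2 in Gpnmb (1 UMI of H2-DMb2 at day 19, counting interval 0.0497 to 11.7) and 16.8 and 4.35 in P2ry12. As a sum, the Fscn1 class was thus the only one of these 4 with the beta chains at near equal counts. This came from its barcodes above the class median of class II RNA, a division made after the values were seen. In them H2-DMb2 and H2-DMb1 were at 346 and 316 CPM at day 13, and at 473 and 447 at day 19. Below that median at day 13, H2-DMb2 was at 4.22 CPM against 50.7 for H2-DMb1, from few UMIs. At day 19 H2-DMb2 was also the lower of the 2 genes there. The 2 genes are neighbours of close sequence, and the sources used here do not say how reads matching both were assigned, so their split is uncertain. The 4 B-like barcodes at day 13 and 2 at day 19, picked by B cell markers, had 19 and 13 UMIs of H2-DMb2 and 1 of H2-DMb1 on each day, or 1900 and 1300 per 100 with counting intervals of 302 to 78946 and 195 to 55247.

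Relative to the chains, DM was sparse in Fscn1 barcodes. H2-DMa, H2-DMb1 and H2-DMb2 together gave 3.82 and 5.37 UMIs per 100 UMIs of H2-Aa, H2-Ab1 and H2-Eb1 there, against 9.37 and 10.7 in Cd209a, 6.30 and 5.11 in Gpnmb and 11.3 and 11.5 in P2ry12 barcodes. Day-13 Vcan barcodes had 109 per 100 (12.6 at day 19). Their H2-DMa, at 184 CPM, was near that of the Fscn1 class, while their H2-DMb1, at 69.5 CPM, was the lowest of the 5 classes and their chains were nearly missing. The share of barcodes with a H2-DMa UMI, after thinning each to 5000 UMIs, was 96.7% and 100% in the Cd209a class but 32.7% and 57.1% in Fscn1. Each of the 58 Cd209a barcodes at day 19 thus held a H2-DMa UMI, at the same depth.

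**Figure D2:**
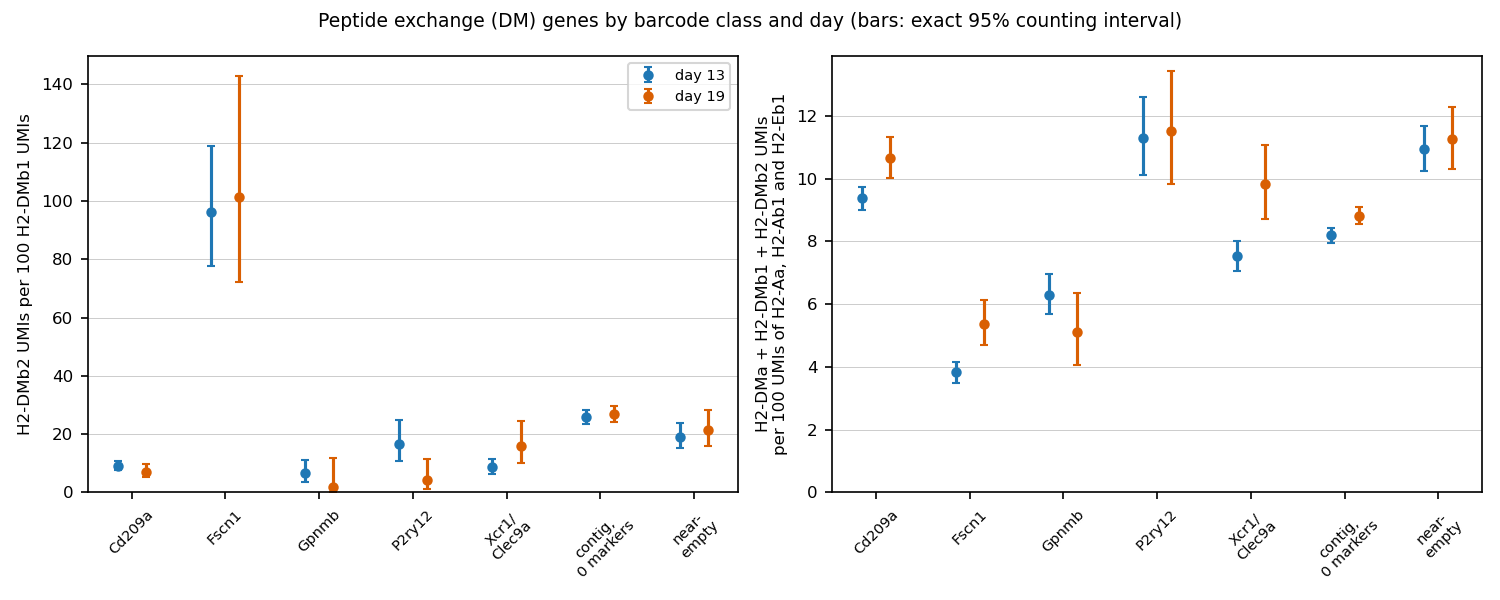
Peptide-exchange (DM) genes by barcode class (x axes) and day, as UMIs per 100 UMIs of a partner gene or of the chains (y axes), with exact 95% counting intervals. The Fscn1 class has the highest H2-DMb2 relative to H2-DMb1 among the marker classes (96.1 and 101 per 100), and low DM relative to chains at day 13 (3.82 per 100).

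Ciita, which drives class II transcription, was counted rarely: 85.5 and 74.2 CPM in the Cd209a class (130 and 44 UMIs), 58.4 and 61.1 in Fscn1, 32.7 and 14.7 in Gpnmb, 44.8 and 33.7 in P2ry12, and 12.4 and 9.49 in Vcan. The day-19 Gpnmb and Vcan values are 1 UMI each. The type 1 dendritic barcodes had the highest level, 158 and 108 CPM. After thinning, a Ciita UMI was seen in 28.9% and 29.3% of Cd209a barcodes, 15.0% and 21.4% of Fscn1, 12% and 0% of Gpnmb (0 of 5 barcodes) and 53.5% and 38.5% of type 1 dendritic barcodes. At this depth a barcode without a Ciita UMI may still hold the transcript.

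Barcodes with a Ciita UMI had more of the other 7 members. In the Cd209a class at day 13 the 44 barcodes with Ciita had 65336 CPM of them and the 108 without had 44709, a log2 ratio of 0.55 (0.30 at day 19). Fscn1 barcodes gave 54912 against 26574 CPM (16 and 91 barcodes), a ratio of 1.05 (1.67 at day 19), Gpnmb barcodes 1.58 at day 13, and P2ry12 barcodes 3.24 and 2.38 from 3 barcodes with Ciita on each day. All these barcodes were thinned to the same depth. Class II levels were thus higher with Ciita in each class and day compared, though cells of a class are not replicates.

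Between days, the Cd209a class changed little: 0 of 8 members differed 2-fold, where 1.33% of genes did. Its log2 ratios of day 19 over day 13 ran from -0.35 for H2-DMb2 to 0.09 for H2-DMa, and the sum stood at -0.22. In Fscn1 barcodes 1 of 7 members passed 2-fold (5.31% of genes), H2-DMa at 1.13, and the sum stood at 0.26. It was not 2-fold once the class needed 4 Fscn1 UMIs or 10000 gene UMIs, or could overlap the other classes. The Fscn1 sum was at -0.02 with overlapping classes. In P2ry12 barcodes 0 of 6 members passed (4.08% of genes), with a sum at 0.26 that turned to -0.62 with the marker at 4 UMIs and to -0.02 without set 4 of day 19.

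All 6 members tested were at least 2-fold higher at day 19 in the Gpnmb class (10.3% of genes in either direction), from 1.09 for H2-DMa to 1.61 for H2-Ab1. Day 19 had 5 such barcodes, and with classes allowed to overlap, which gave 12, 0 members passed. In the Vcan class 3 of 3 members were higher (10.8% of genes in either direction): H2-Aa at 3.77, H2-Ab1 at 3.51 and Cd74 at 1.67. H2-Aa and H2-Ab1 reached the UMI minimum only through day 19, so their calls are no support. Without the barcode with the most class II UMIs in each day, 0 members passed and the summed ratio went from 2.07 to -0.61. Both differences therefore rest on few barcodes, and fewer cells of a kind and less RNA per cell cannot be told apart in such sums.

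Single barcodes varied widely within every class. The summed members took a median of 538 UMIs per 10000 in the Cd209a class at day 13 (quartiles 228 and 725) and 456 at day 19 (222 and 662). Fscn1 barcodes had medians of 156 (51.4 and 547) and 216 (64.4 and 514), and Gpnmb barcodes 78.1 (7.39 and 295) and 520 (369 and 556). The quartile ranges of the Cd209a and Fscn1 classes overlapped on both days, and at day 13 the lower quartile of the Gpnmb class was near 0. Vcan barcodes had medians of 7.49 and 4.89 and means of 19.0 and 63.6, so their middle and their sum went opposite ways. By sample tag, Fscn1 sums at day 13 ran from 12772 to 35699 CPM over 4 sets of 5 to 13 barcodes, and Gpnmb sums from 10864 to 19261 over 3 sets, so sets of one class differed widely. Most barcodes had no clear sample tag and are in none of these sets: 69 of 107 in Fscn1, with 34316 CPM, and 49 of 75 in Gpnmb, with 22673 CPM, above each of its sets. Where both classes had at least 5 barcodes of a set at day 13, Fscn1 against Gpnmb sums were 30674 against 12753 CPM in set 2, 35699 against 10864 in set 3 and 13102 against 19261 in set 4, so set 4 went against the order of the whole classes.

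In P2ry12 barcodes the middle differed between days by more than the sum did. Their median was 9.20 UMIs per 10000 at day 13 (3.99 and 50.2) and 73.6 at day 19 (38.8 and 173), while their means were 109 and 169. H2-Aa was seen in 35.8% of them at day 13 and in 73.1% at day 19 after thinning, and H2-Ab1 in 37.7% and 84.6%. On both days the top barcodes held a large share of the class II UMIs, 40.6% in 3 of 53 and 39.5% in 2 of 26, so the sum followed them while the typical barcode held more at day 19. With all list genes counted, macrophage genes in this class stood at 24078 and 29874 CPM and microglia genes, P2ry12 included, at 7673 and 8612. Their part in the result was not tested.

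**Figure D3:**
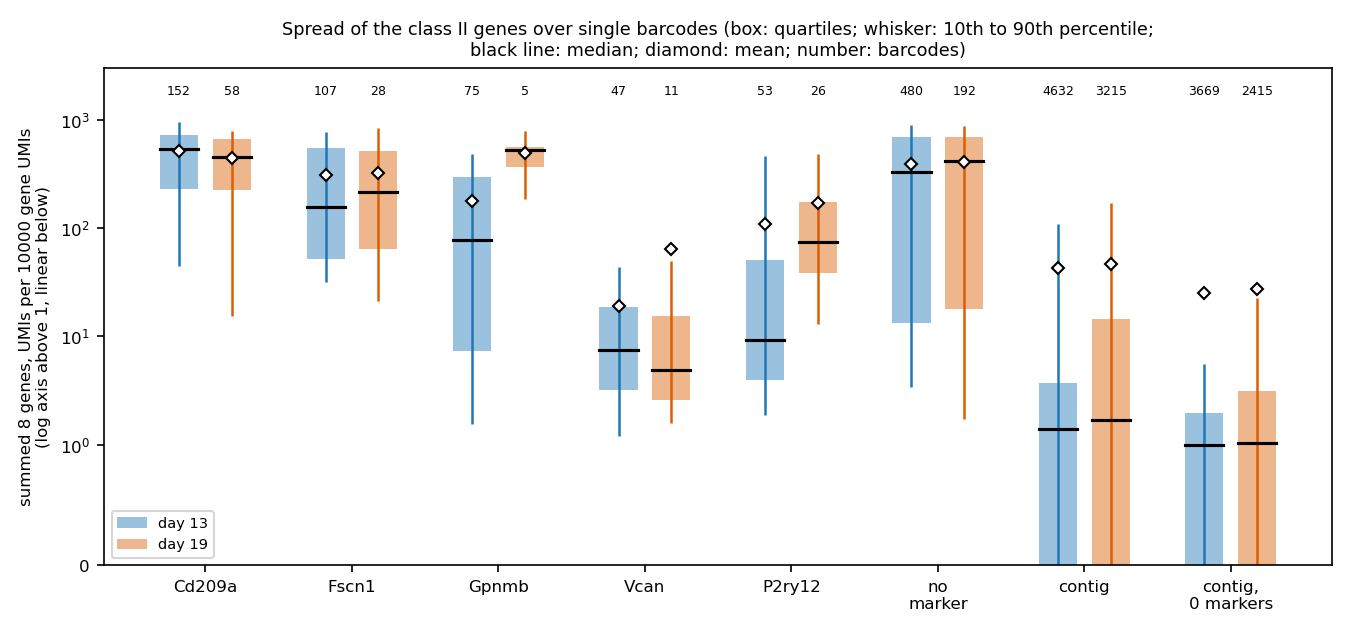
UMIs of the summed 8 genes per 10000 gene UMIs of each barcode (y axis, log above 1 and linear below) by class (x axis) and day; boxes span the quartiles, whiskers the 10th to 90th percentile, lines are medians, diamonds means, and numbers count barcodes. The P2ry12 median stands at 9.20 at day 13 and 73.6 at day 19, with means of 109 and 169.

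In 4 of the 5 classes at day 13, all but Vcan, H2-Aa ranked barcodes more like the other chains and Cd74 than like H2-DMa and H2-DMb1. Spearman's rho of H2-Aa with H2-Ab1, H2-Eb1 and Cd74 over the 152 Cd209a barcodes of day 13 was 0.93, 0.96 and 0.90, and over the 107 Fscn1 barcodes 0.87, 0.95 and 0.84. With H2-DMa it was 0.19 and 0.51 in these 2 classes, and with H2-DMb1 0.51 and 0.61. Over the 47 Vcan barcodes, where the chains were nearly missing, it was 0.41, 0.47 and 0.28 with H2-Ab1, H2-Eb1 and Cd74, 0.29 with H2-DMa and 0.15 with H2-DMb1. Values are shares of each barcode's UMIs within 1 library, so the genes share depth and total, and these coefficients are descriptions without a test. H2-DMa and H2-DMb1 also had fewer UMIs, 1131 and 1579 against 12128 of H2-Aa in the day-13 Cd209a class. In the day-13 Fscn1 class they had 176 and 181 against 5482. Low counts can lower rho by themselves, and their part was not tested.

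An antibody tag for I-A/I-E gave a protein readout of the same barcodes, and it did not rank the classes as RNA did. In UMIs per 1000000 tag UMIs (tag CPM) the Fscn1 class had 33344 and 42733, the Cd209a class 6594 and 6779, Gpnmb 8318 and 19986, P2ry12 2860 and 6352 and Vcan 1187 and 1056. Median tag UMIs per barcode were 161 and 112 in Fscn1 against 22 and 10 in Cd209a barcodes. The Fscn1 class was thus highest by protein tag on both days. Over the Cd209a class its tag stood 2.34 and 2.66 higher on the log2 scale, where its class II RNA stood at -0.64 and -0.16. With a minimum of 1000 UMIs the day-19 tag ratio was 0.80, and with 10000 UMIs the day-19 RNA ratio turned to 0.44.

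Near-empty barcodes, with 10 to 100 gene UMIs, set the tag background at 933 and 897 tag CPM. Isotype control tags ran from 1210 to 2755 tag CPM across the 5 classes at day 13, so the Vcan value was at background. Near-empty barcodes carried a median of 4023 and 2094 UMIs of all tags, close to the 4367 and 2308 of cells without Cd3, so total tag UMIs do not mark cells here.

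When each class was split at its own median of class II RNA, a division made after the values were seen, the tag went with RNA in the Cd209a and Gpnmb classes. Medians were 8.5 UMIs below and 44 above in the Cd209a class at day 13, 3 and 23 at day 19, and 6 and 41 in Gpnmb at day 13. Isotype control tags had a mean of their medians of 8.67 UMIs in both classes at day 13 and 4.67 in Cd209a at day 19, so by median UMIs the lower barcodes were at background. As a share the lower Cd209a barcodes, at 3077 and 3322 tag CPM, were above their highest isotype tags, at 2585 and 2524. Both P2ry12 medians at day 13, 4 and 7, were below the isotype level. As a share the upper P2ry12 barcodes, at 4699 and 11441 tag CPM, were above the highest isotype tags of the class, at 2590 and 2575. The lower P2ry12 barcodes, at 977 and 1462 tag CPM, were below them. In Fscn1 barcodes the median tag UMIs were 181 below and 156 above at day 13, and 100 and 134.5 at day 19. The lower Fscn1 barcodes of day 13 thus carried as much tag as the upper ones, with 5245 CPM of class II RNA against 58092. In them H2-Aa was at 868 CPM, H2-Ab1 at 112 and H2-Eb1 at 482, against 10179, 7188 and 9160 in the upper ones.

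The rank correlation of tag share with RNA share over single barcodes had the same pattern: rho was 0.81 and 0.65 in Cd209a barcodes, 0.85 in Gpnmb at day 13, 0.58 and 0.59 in P2ry12, and -0.01 and 0.14 in Fscn1. Both readouts of a barcode come from the same droplet, and no p is given.

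**Figure D4:**
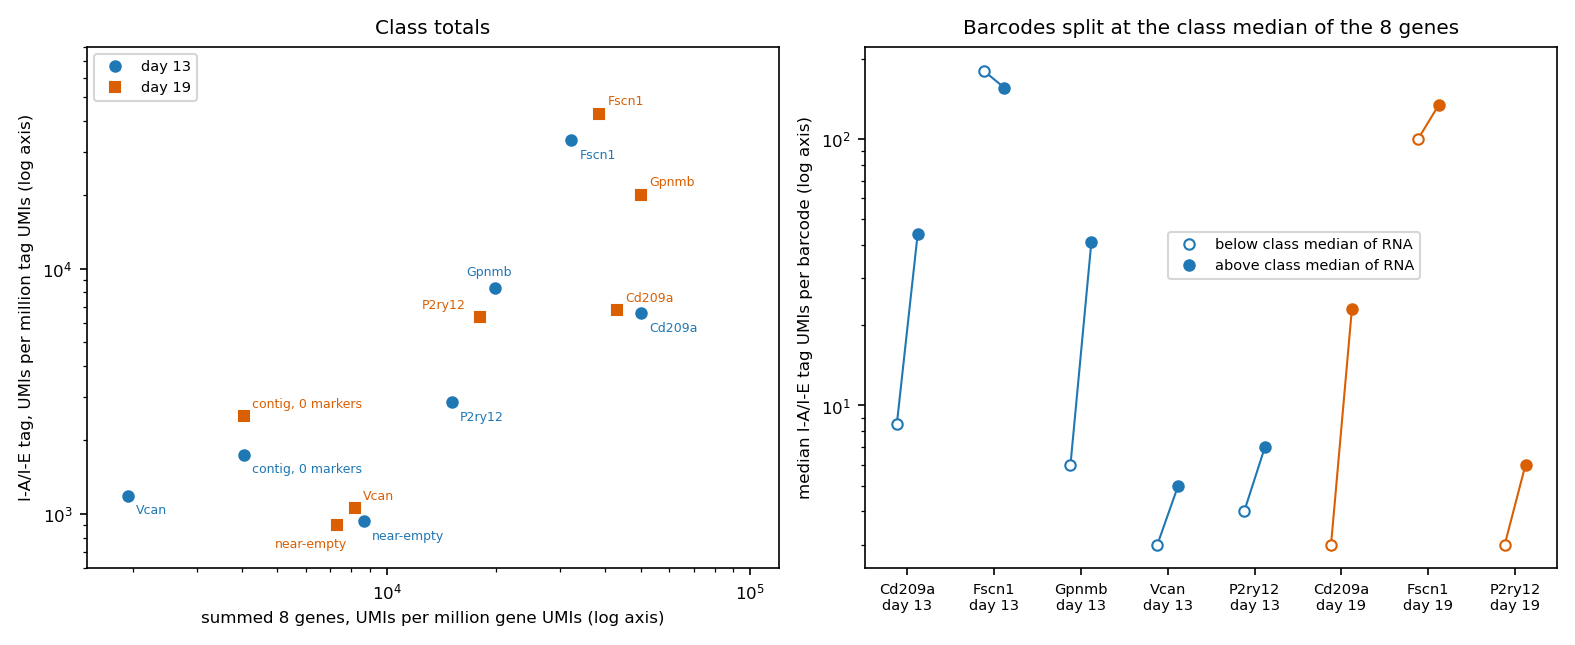
Left, I-A/I-E antibody tag (y axis, tag CPM, log axis) against summed class II RNA (x axis, CPM, log axis) for each class and day; right, median tag UMIs per barcode (log axis) below (open) and above (filled) the class median of class II RNA. Fscn1 stands highest by tag (33344 and 42733 tag CPM), and its 2 points at day 13 are nearly level, 181 and 156 UMIs.

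In contig barcodes, which carry an assembled TCR chain, the 8 genes summed to 6659 CPM at day 13 and 6846 at day 19. H2-Aa was at 1085 and 1140 CPM, Cd74 at 3492 and 3500, H2-DMa at 103 and 129 and Ciita at 13.5 and 15.0. None of the 8 differed 2-fold between days (0 of 8, against 3.01% of genes). The summed log2 ratio was 0.04, and its direction changed with the depth asked for: it was 0.27 with a minimum of 1000 UMIs and -0.36 with 10000, and -0.03 without contig set 3 of day 13. Over the 4 contig tables of a day, which the labels do not tie to mice, sums ran from 5903 to 7266 CPM at day 13 and from 6464 to 7287 at day 19. The ranges overlapped.

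Class II UMIs were concentrated in few contig barcodes. Levels were binned after the data had been seen: 82.9% of barcodes at day 13 and 72.3% at day 19 had under 10 class II UMIs per 10000 and together held 1.46% and 1.48% of these UMIs. Those with at least 100 per 10000 numbered 471 (10.2%, exact binomial 95% interval 9.31 to 11.1%) and 402 (12.5%, 11.4 to 13.7%) and held 93.3% and 89.7%. Levels from 10 to 30 were found in 3.43% and 8.55% of barcodes, and from 30 to 100 in 3.54% and 6.66%, so the middle bins were fuller at day 19.

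**Figure D5:**
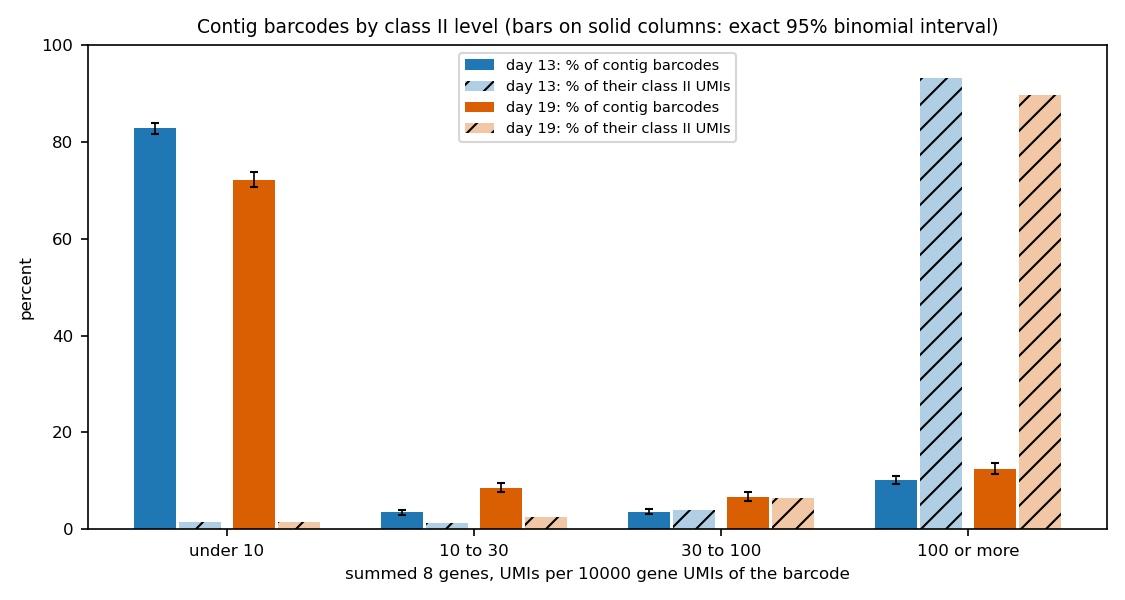
Percent of contig barcodes (solid columns, exact 95% binomial interval) and of their class II UMIs (hatched columns) by the barcode's class II level (x axis, UMIs of the 8 genes per 10000 gene UMIs) at day 13 and day 19. The highest bin has 10.2% and 12.5% of the barcodes and 93.3% and 89.7% of the UMIs.

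High contig barcodes differed in other measures too. At 100 per 10000 or more, median gene UMIs were 14594 and 16902.5, against 7032 and 8918 under 10. The Cd3 genes were at 1183 and 1382 CPM against 2875 and 2987, the macrophage list at 4671 and 9077 CPM against 1527 and 987, and the I-A/I-E tag at 15690 and 18515 tag CPM against 1160 and 1625. The dendritic list stood at 1368 and 937 CPM against 264 and 277, and the B cell list at 65.2 and 53.9 against 12.7 and 9.94. Macrophage transcripts did not follow class II across all bins: they were higher in the bin from 30 to 100 per 10000, at 9233 and 12861 CPM, than in the top bin. The part of depth and of these other transcripts in the result was not tested.

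Contig barcodes with 0 UMIs of the 5 class markers (3669 and 2415) had a sum of 4052 and 4049 CPM, and 5.56% and 6.50% of them reached 100 per 10000. Of those with Cd8a or Cd8b1 and no Cd4 UMI the sum was 1837 and 1363 CPM, and of those with Cd4 and no Cd8 UMI 10899 and 9492. Both sums rest on few barcodes. Levels of at least 100 per 10000 were met in 66 of 2575 and 37 of 1513 CD8-only barcodes, with 90.9% and 84.1% of the group's class II UMIs. In CD4-only barcodes it was 69 of 489 and 67 of 491, with 97.3% and 94.2%. Macrophage genes in these stood at 4571 and 7960 CPM (CD8-only) and 3953 and 6053 CPM (CD4-only). Medians per 10000 were 0.714 and 0.651 in CD8-only and 1.65 and 2.15 in CD4-only barcodes. After thinning, a H2-Aa UMI was seen in 8.70% and 8.86% of the CD8-only barcodes (median depth 7170 and 9234 UMIs) and in 20.2% and 28.1% of the CD4-only barcodes (6802 and 8734). The CD8-only share serves as the background for the marker classes, whose H2-Aa shares were 89.5% and 84.5% in Cd209a, 86.0% and 85.7% in Fscn1, 68.0% and 100% in Gpnmb and 12.8% and 18.2% in Vcan barcodes. Median depths of the first and last of these were 10000 and 8330 UMIs at day 13, so H2-Aa in Vcan barcodes was near background. For Cd74 the CD8-only shares were 22.1% and 20.6%, against 72.3% and 90.9% in Vcan barcodes.

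Near-empty barcodes, 63363 at day 13 and 69869 at day 19, held free RNA with 8653 and 7328 CPM of the 8 genes. H2-Aa was at 1115 and 855 CPM there, Cd74 at 5313 and 4612 and H2-DMb1 at 173 and 132. That is above the level of contig barcodes without class markers, whose sum was lower by 1.09 and 0.86 on the log2 scale, and of the CD8-only ones. Day-13 Vcan barcodes were below it for the chains, at -3.72 for H2-Aa, -2.94 for H2-Ab1 and -4.94 for H2-Eb1, and at -1.88 for Cd74, while H2-DMa was above it, at 0.58. Cd74 made up 61.4% and 62.9% of class II UMIs in near-empty barcodes, against 56.2% and 54.0% in Cd209a and 50.8% and 49.3% in contig barcodes without markers.

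Other genes of the pathway came from a list of 32, of which 30 were in the matrices. Between days 2-fold was passed by 2 of 20 with at least 100 UMIs in the Cd209a class (1.33% of all genes tested), 1 of 21 in Fscn1 (5.31%), 1 of 16 in Gpnmb (10.3%), 1 of 15 in Vcan (10.8%), 0 of 16 in P2ry12 (4.08%) and 1 of 30 in contig barcodes (3.01%). None passed 2-fold in 3 or more of the 5 classes. Those that passed, named after their values were seen, were Ctsd at 1.38 and Irf8 at 1.41 in Cd209a, Ctsd at 1.35 in Fscn1, Ifngr1 at 1.34 in Gpnmb, Cd83 at -1.30 in Vcan and H2-Eb2 at -1.65 in contig barcodes. The median log2 ratio over all list genes with at least 100 UMIs was 0.02 in the Cd209a class, 0.04 in Fscn1, 0.07 in Gpnmb, -0.42 in Vcan, 0.12 in P2ry12 and -0.18 in contig barcodes. H2-Oa, a chain of the DM inhibitor DO, was at 105 and 80.9 CPM in Cd209a, 77.8 and 155 in Fscn1, 10.1 and 14.7 in Gpnmb and 50.9 and 77.1 in P2ry12 barcodes, and its partner H2-Ob at 46.0 and 48.9, 57.3 and 65.1, and 3.77 and 0 in the first 3 of these. At day 13 DO transcripts were thus higher in the Cd209a and Fscn1 classes than in Gpnmb barcodes, and H2-Oa also in P2ry12 barcodes. Of these day-13 values only H2-Oa in the Cd209a class rests on 100 UMIs or more. At day 19 the Gpnmb values are 1 UMI of H2-Oa and 0 of H2-Ob, which allows up to 44.1 CPM of H2-Ob, so little can be read there.

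The proteases and the thiol reductase had other orders. Ctss, which trims the invariant chain, was at 1805 and 1838 CPM in Cd209a, 1291 and 1347 in Fscn1, 6630 and 5436 in Gpnmb and 4864 and 6315 in P2ry12. Lgmn, the asparagine endopeptidase, was at 235 and 288, 605 and 688, 1742 and 2277, and 2304 and 2929 CPM. Ifi30, which reduces disulfide bonds of antigens, was at 2663 and 2386, 3055 and 2638, 1446 and 1234, and 1237 and 1185 CPM. Both proteases were thus higher in the Gpnmb and P2ry12 classes on both days, and Ifi30 in the Fscn1 and Cd209a classes.

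Some regulators differed between classes, while others stayed within 2-fold over the 5 classes at day 13. Rfx5 is part of the complex at the X box. It was at 12.5 and 15.2 CPM in Cd209a and 27.6 and 32.6 in Fscn1 barcodes, each from fewer than 100 UMIs. Its partners Rfxap and Rfxank had 31.4 to 43.4 and 6.58 to 17.6 CPM over the 5 classes at day 13. Irf1, a transcription factor induced by interferon-gamma, was at 226 and 403 CPM in Cd209a, 582 and 554 in Fscn1, 155 and 264 in Gpnmb and 247 and 202 in P2ry12. Ifngr1, a chain of the interferon-gamma receptor, was at 106 and 171 CPM in Fscn1 against 380 and 356 in Cd209a, while Ifngr2, the other chain, ran from 148 to 239 CPM over the 5 classes at day 13. Of the kinases below the receptor, Jak1 ran from 112 to 179 CPM at day 13, and Jak2 was at 317 in Fscn1 and 225 in Cd209a against 65.4 in Gpnmb and 63.2 in P2ry12. Socs1, an inhibitor of the same signal, was at 52.6 and 65.8 CPM in Cd209a and 133 and 118 in Fscn1 barcodes. Set against the Cd209a class at day 13, 9 of 25 list genes were at least 2-fold higher in Fscn1 and 2 lower, where 12.8% and 15.7% of all genes tested were. At day 19 it was 4 of 17 higher and 1 lower, against 13.5% and 22.7%. Some, such as H2-Eb2, reached 100 UMIs only through the class where they were high, so these counts are descriptions and no support. H2-Eb2, named after its values were seen, had 103 and 61.1 CPM in Fscn1 and 0 UMIs in Cd209a barcodes, a log2 difference of at least 5.71 at day 13 with 3 counts as the limit over the class, and its reads may be shared with H2-Eb1.

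Across 14 sums (5 classes, barcodes without a marker and contig barcodes, by 2 days), genes most like the summed members included, by Pearson's r of log2(CPM + 1), among 8946 ranked, Ccdc102a (0.87), Haao (0.86), Borcs6 (0.85), Gdi2 (0.83), Orai3, Klrb1b, Prr5l and Spon1 (0.81 each) and Sdccag8 (0.80). The members' own r ran from 0.76 for Ciita and H2-DMa to 0.98 for H2-Aa and 1.00 for Cd74, which dominates the sum. The 14 sums share 2 libraries and differ in size, so the values are a description.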

How the data were processed

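Per the file headers, the authors' matrices came from Cell Ranger 4; the deposited values are unfiltered, raw UMI counts. The submitters' processing notes list bcl2fastq 2.20, Cell Ranger 4.0.0, STAR 2.7.5c and build mm10. The deposited TCR tables list contigs per barcode. From these counts, UMIs were summed per class and day and divided by all gene UMIs (CPM). Intervals are exact 95% Poisson or binomial ones and cover counting error only. Log2 ratios of CPM use the conditional binomial interval. They were checked on simulated Poisson counts only, which leave out the spread over barcodes. Where a class had 0 UMIs, 3 counts stood in as its limit. The background is every gene whose pair of sums reached 100 UMIs. Shares were taken after thinning to 5000 UMIs (seed 1). With 1 capture per day no p-value is given. The members, lists and comparisons were chosen with earlier results of these data known. Named genes are the members, the H2-O, Ctss, Lgmn, Ifi30, Rfx and interferon-gamma genes of the list, list genes 2-fold different between days in 3 classes, and the 10 genes most like the members; 2 genes of this rule are not reported here. Python 3.11.15, numpy 2.4.6, scipy 1.17.1 and pandas 2.3.3 were used. Alternatives are given in the closing section.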

Additional observations from a re-analysis of the deposited data

How the results depend on the processing

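Counts of members at least 2-fold different were unchanged under each alternative for the Cd209a class between days (0), contig barcodes between days (0), and Vcan (5) and P2ry12 (0) against Gpnmb at day 13. Some alternatives could hardly change them: the 5% mitochondrial limit kept all 152 and 58 Cd209a barcodes, and leaving out a set removed 0 to 9 of them, since 131 and 54 are in no set. For Cd209a against Gpnmb at day 13 the count was 6 to 8. Fscn1 between days (1) went to 0 with at least 10000 UMIs, 2 with a marker at 1 UMI, and 0 with a marker at 4 UMIs or overlapping classes. Gpnmb (6) went to 0 with overlapping classes, 4 with at least 10000 UMIs and 5 with a marker at 4 UMIs or without set 2 of day 13, Vcan (3) to 0 with overlapping classes or without its top barcode and 4 with a marker at 1 UMI, and P2ry12 (0) to 1 without the 8% deepest barcodes and 2 with a marker at 4 UMIs. The summed Vcan ratio was reversed, from 2.07 to -0.61, without the top barcode, an alternative chosen after seeing the data. Fscn1 against Gpnmb at day 13 (2) was 1 with at least 1000 or 10000 UMIs, a marker at 4 UMIs or overlap, 3 without the deepest barcodes or with a marker at 1 UMI, and 1 to 2 with a sample-tag set left out. At day 19 (1, where 40.3% of all genes were) it was 2 with at least 1000 UMIs, with per-barcode means or with a marker at 1 UMI, 0 with 10000 UMIs, a marker at 4 or overlap, and 1 to 2 with a set left out. Other day-19 counts against Gpnmb moved from 0 to 4 for Cd209a with overlap (33.1% of all genes), from 4 to 2 for Vcan with a marker at 4 UMIs and to 5 with 1 UMI (28.2%), and from 4 to 0 for P2ry12 with a marker at 1 UMI or overlap and to 5 without its top barcode or without set 4 (20.7%). Fscn1 against Cd209a went from 2 to 5 at day 13 with overlap and to 3 under 5 other settings, and from 3 to 1 at day 19 without the deepest barcodes and to 4 with overlap. For H2-DMa and H2-DMb1 at day 13 the log2 ratios stayed between -2.30 and -1.44, and between -2.67 and -1.93, and for H2-DMb2 between 0.19 and 1.52. At day 19 they ran from -1.41 to -0.70 for H2-DMa, -2.38 to -1.01 for H2-DMb1 and 1.01 to 2.52 for H2-DMb2. Summed day ratios ranged from -0.28 to -0.09 in Cd209a, -0.02 to 0.41 in Fscn1, 0.13 to 1.49 in Gpnmb, -0.61 to 4.37 in Vcan (highest with a marker at 4 UMIs), -0.62 to 0.75 in P2ry12 and -0.36 to 0.27 in contig barcodes, so the direction depends on the setting in the last 3 and in Fscn1. P2ry12 against Gpnmb at day 13 ranged from -0.86 to 0.21, and Fscn1 against Cd209a at day 19 from -0.87 to 0.44. At day 19, Cd209a against Gpnmb ranged from -0.38 to 0.97 and Fscn1 against Gpnmb from -0.61 to 0.10, so these directions depend on the setting too. Near-empty sums of 8653 and 7328 CPM became 9066 and 7569 with 10 to 50 UMIs, and 5140 and 7459 with 100 to 500. Of 96 shares recomputed without thinning, 28 left their interval and 73 were higher. No paired analysis was possible because no value comes from a test: each day is a single capture, and the sets within a day are not tied to mice. Depth limits the day-19 Gpnmb class, with 5 barcodes, and Ciita, with 1 to 130 UMIs per class. The cause of each change was not tested.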
